A study of Mus musculus with 9 samples.

Results

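The insulin-like growth factor system of the juvenile mouse ovary was followed through 10 genes, which were the rows of the expression tables named Igf1, Igf2, Igf1r, Igf2r, Igfbp2, Igfbp3, Igfbp4, Igfbp5, Igfbp6 and Igfbp7, out of 52025 genes in all. The data came from RNA-seq of Kunming mice on postnatal day (PD) 14, 15 and 16, the days around the first appearance of fluid-filled cavities in growing follicles. There were 3 libraries for each day and no treatment was given in the labels, so the 3 groups differed by age alone as labelled. Ovary is named as the tissue in the labels and granulosa cells as the source, whereas the study describes ovaries. The study describes independent ovaries, but neither it nor the labels say whether those of a day came from separate mice, so the p-values measure the spread between these libraries, which may in part be technical.

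Insulin-like growth factors are small secreted proteins that act through a receptor tyrosine kinase and are held in the extracellular space by a family of binding proteins, which carry them, withhold them from the receptor and are themselves cut by proteases. In the rodent ovary, IGF1 made within follicles raises the response of granulosa cells to follicle-stimulating hormone. IGF2 is bound by the same receptor and is removed from the cell surface by a separate receptor that does not signal as a kinase.

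Levels were measured as FPKM, mapped fragments scaled to exon length and library depth. Comparisons between genes rest on the exon length used, and whether it matches the transcripts made in these ovaries was not checked. Depth ran from 20.4 to 28.7 M fragments per library. Markers of granulosa cells were abundant, with a summed FPKM of 2925 to 3781 per library over 12 genes, but all 12 oocyte markers, all 8 theca and interstitial markers and all 8 stromal markers also passed the expression filter. Their sums reached at least 1082, 1282 and 520 FPKM in each library, respectively. Single genes made up much of some sums. Inha, a granulosa marker, was at 1780 to 2629 FPKM over the libraries, and Hsd3b1, of the theca and interstitial list, at 1062 to 2091. The libraries therefore held RNA of several ovarian cell types and were treated as ovaries. In such bulk samples, fewer cells of a type and less RNA per cell cannot be told apart.

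All 10 genes were transcribed at a mean FPKM above 1 on each day and entered the test, which took the 15495 genes with a mean above 1 on at least 1 day. Igf1 rose from PD14 to PD16, and it was the single member that passed the test in any comparison. Its receptor Igf1r had higher day means on PD15 and PD16 than on PD14 without passing the test. Igfbp2, Igfbp6 and Igfbp7 had their lowest mean at PD15, again without passing the test. Igfbp4 had nearly equal means on the 3 days.

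**Figure D1:**
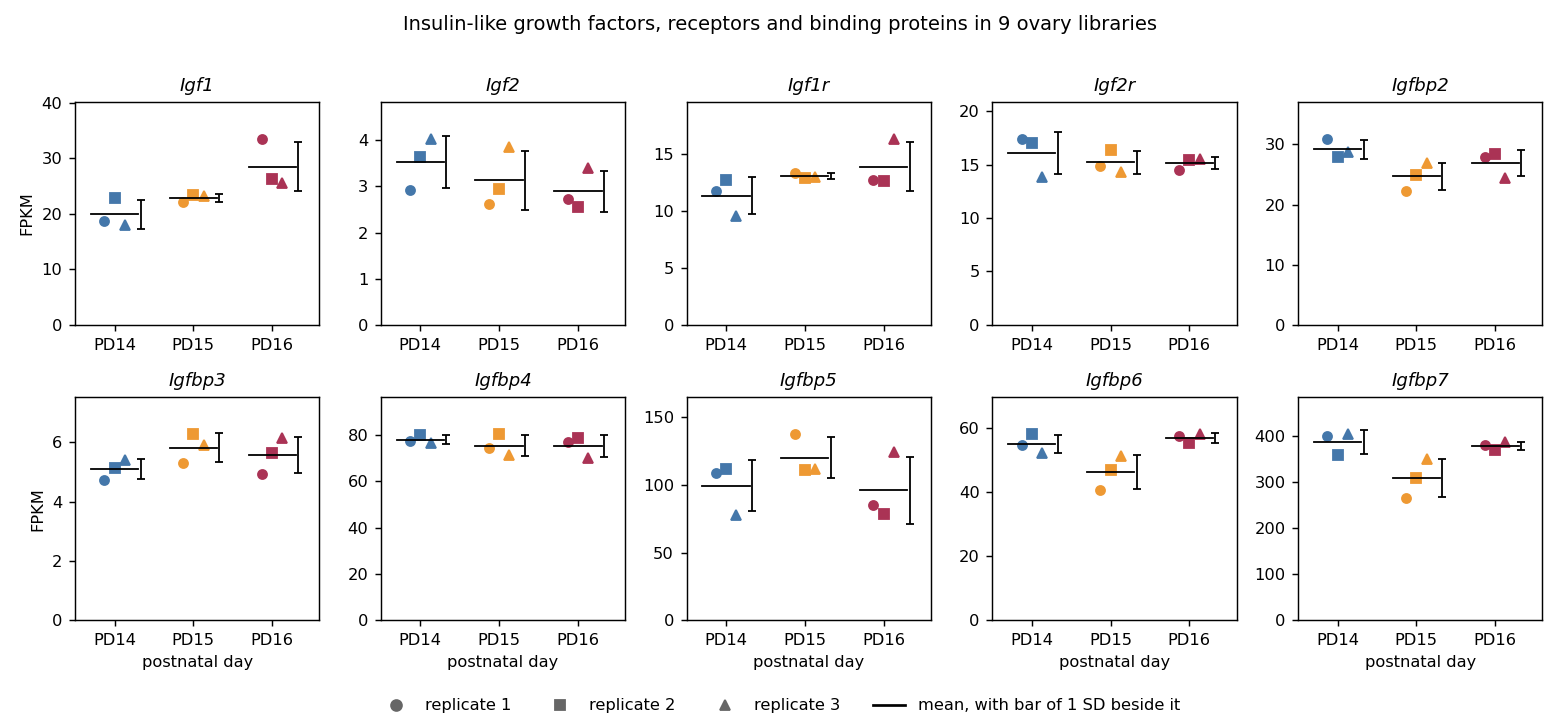
FPKM (vertical axes, each from 0) of the 10 genes in each library by postnatal day, with symbols for the replicate number, a horizontal line for the mean and a bar of 1 SD beside it. The Igf1 libraries of PD16 lie at 25.6 to 33.5 FPKM, above those of PD14 at 18.1 to 22.9, and the Igfbp7 libraries of PD15 lie at 266 to 349, below all libraries of the other days.

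The ligands were examined first. Igf1 encodes the growth factor itself and lies at chr10:87858265-87937042 on the plus strand (mm10, GENCODE M21). Its FPKM was 18.7, 22.9 and 18.1 in the PD14 libraries, 22.1, 23.4 and 23.3 in the PD15 libraries and 33.5, 26.3 and 25.6 in the PD16 libraries. All PD16 libraries were above all libraries of both earlier days, whereas PD14 replicate 2 lay within the range of PD15. The mean (with its SD, n = 3) went from 19.9 ± 2.61 on PD14 to 22.9 ± 0.712 on PD15 and 28.5 ± 4.38 on PD16. From PD14 to PD16 the ratio of the means was 1.43, and the difference in log2(FPKM + 1) was 0.49 (SE 0.11, 95% interval 0.24 to 0.75) with a Benjamini-Hochberg adjusted p of 0.0437 in limma. Over all genes tested, the median of this difference was 0.01.

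The call for Igf1 was close to the threshold. Its direction was the same in each of 17 alternative settings, with a log2 difference of 0.37 to 0.59, but the limma adjusted p was under 0.05 in 5 of them (range 0.0321 to 0.142), and with each of the 9 libraries left out in turn in 1 case only, that without PD14 replicate 2. PD16 replicate 1, the highest library, moved the value most, to a log2 difference of 0.37 and an adjusted p of 0.109 when it was left out. The exact permutation test over these 6 libraries gave p = 0.1, two-sided, the smallest value that 3 against 3 libraries allow.

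The steps between neighbouring days were smaller. The difference for Igf1 was 0.20 (SE 0.11, limma adjusted p = 0.442) from PD14 to PD15 and 0.29 (SE 0.11, adjusted p = 0.276) from PD15 to PD16, and the latter was 0.17 without PD16 replicate 1. Between 3647 and 7908 fragments per library fell on Igf1, so that the counting error (the Poisson coefficient of variation) was at most 1.66% and below the spread between libraries. Igf1 has a long exonic sequence of 9904 bases, and among the 3980 tested genes of 6000 bases or longer the median difference between PD16 and PD14 was 0.05, against -0.02 for the 2657 genes of 1500 bases or shorter.

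Markers of other cells were read beside Igf1. Between PD16 and PD14, 2.36% of all genes tested rose and 1.89% fell in limma, and 22.8% had an unadjusted p under 0.05. The libraries of these days did not overlap for 15.0% of all genes in the higher direction and 28.5% in either. The summed FPKM of the 8 macrophage markers was 27.8 to 30.7 at PD14 and 34.2 to 43.1 at PD16, and of the 7 tested, 5 had a positive and 2 a negative difference, 1 rose and 0 fell. The one that rose, Lyz2, had a mean of 8.91 FPKM at PD14 and 15.8 at PD16, and Cd68 and Csf1r differed by -0.11 and -0.04. None of the 8 was at 0 in every library. The granulosa sums overlapped, with 3080 to 3781 at PD14 and 3063 to 3621 at PD16. Inha alone was at 2048 to 2629 and 1985 to 2429 FPKM. Of the 12 tested granulosa markers, 5 had a positive and 7 a negative difference, 1 rose (Amh) and 1 fell (Cyp19a1). Of these 12, 6 had an unadjusted p under 0.05, and without overlap 2 were higher and 4 lower at PD16. The 8 surface epithelium markers summed to 56.2 to 65.2 FPKM at PD14 and 44.7 to 49.0 at PD16, and 3 of the 7 tested fell, the keratins Krt8, Krt18 and Krt19, whereas Upk1b, Upk3b and Msln differed by 0.09, 0.05 and 0.11 without passing. The 6 smooth muscle markers summed to 298 to 342 and 327 to 445 FPKM, with a positive difference in all 6 and 1 that rose (Cnn1). Of these sums, Acta2 alone made up 238 to 274 and 256 to 344 FPKM. The 8 endothelial markers summed to 69.0 to 74.0 and 62.2 to 65.1 FPKM, and 1 fell (Tie1, limma adjusted p = 0.0458). Of the 12 oocyte markers 4 had a positive and 8 a negative difference, with a median of -0.23, and 1 rose (Bmp15, adjusted p = 0.0331). Of these 12, 6 had an unadjusted p under 0.05, and without overlap 1 was higher and 5 were lower at PD16. The fat marker Plin1, the 1 tested of 5, fell (adjusted p = 0.0294). All 5 red blood cell markers tested had a negative difference, with a median of -0.52 and 0 called by limma. Of the 8 theca and interstitial markers, 5 had a negative and 3 a positive difference, with a median of -0.25. Limma called 0 of these 8 (3 at an unadjusted p under 0.05), and 2 were lower at PD16 without overlap. The 8 stromal markers summed to 641 to 722 and 648 to 684 FPKM, and 2 had a positive and 6 a negative difference. Limma called 0 of them (0 at an unadjusted p under 0.05), and 1 was lower at PD16 without overlap. The part of these cells in the change of Igf1 was not tested.

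By root mean square difference between profiles centred on their own mean over the 9 libraries, the protein-coding genes most like Igf1 among 12476 compared were Fgd6, Snx18 and B3galnt1, at 0.09, 0.09 and 0.10 on the log2 scale. Snx18 had a median of 54.5 FPKM at PD14, 64.0 at PD15 and 73.0 at PD16. B3galnt1 was at 26.8, 28.9 and 33.1, and Fgd6 was low at 1.56, 1.94 and 2.64. Genes chosen for a profile like that of Igf1 share its rise by construction, so these values are a description.

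Igf2, the second ligand, is transcribed from the paternal allele in most mouse tissues and lies at chr7:142650766-142666816 on the minus strand. It was the least abundant of the 10 genes, with 2.92, 3.64 and 4.03 FPKM at PD14, 2.61, 2.94 and 3.85 at PD15 and 2.72, 2.56 and 3.39 at PD16. The days overlapped throughout. The difference between PD16 and PD14 was -0.22 (SE 0.14, limma adjusted p = 0.375), with a 95% interval of -0.52 to 0.09, and it was -0.14 without PD14 replicate 3. Between 333 and 633 fragments per library fell on Igf2. Of its exonic bases, 62.8% are shared with Gm49394, a protein-coding gene on the same strand that has no FPKM value in these data. Any reads of Gm49394 on the shared bases cannot be told from those of Igf2.

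In each library, Igf1 transcripts outnumbered Igf2 transcripts per length. The ratio was 4.48 to 6.41 at PD14, 6.05 to 8.47 at PD15 and 7.56 to 12.3 at PD16. The PD16 libraries were all above the PD14 libraries, and the PD15 libraries overlapped both. These ratios are given as a description, since Igf1 had already been seen to rise.

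The receptors had lower transcript levels than Igf1. Igf1r encodes the signalling receptor for both ligands and lies at chr7:67952827-68233668 on the plus strand. Its FPKM was 11.8, 12.7 and 9.57 at PD14, 13.3, 12.9 and 12.9 at PD15 and 12.7, 12.6 and 16.3 at PD16. Each PD15 library was above each PD14 library, although PD14 replicate 2 came close to PD15 replicate 2, and PD16 overlapped both. The difference was 0.19 (SE 0.11, limma adjusted p = 0.459) between PD15 and PD14 and 0.27 (SE 0.11, adjusted p = 0.196, unadjusted p = 0.0401) between PD16 and PD14. Without PD14 replicate 3 these became 0.09 and 0.16, and without PD16 replicate 3 the latter became 0.16. The exonic sequence of Igf1r is the longest of the 10 genes, at 16791 bases, and these libraries also stood apart in the tested genes of 6000 bases or longer, with a median deviation of -0.06 in PD14 replicate 3 and 0.04 in PD16 replicate 3. The part of this in the values of Igf1r was not tested.

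Igf2r encodes the cation-independent mannose 6-phosphate receptor, which clears IGF2 from the cell surface, and lies at chr17:12682406-12769664 on the minus strand. Its FPKM was 17.4, 17.0 and 13.8 at PD14, 14.9, 16.4 and 14.3 at PD15 and 14.5, 15.4 and 15.5 at PD16. PD14 replicate 3 was the lowest of the 9 libraries and the other PD14 libraries were the highest, so the days overlapped. The differences were -0.07 (95% interval -0.27 to 0.12) for PD15 against PD14, -0.08 (-0.27 to 0.12) for PD16 against PD14 and -0.00215 (-0.20 to 0.19) for PD16 against PD15, with limma adjusted p-values of 0.744, 0.649 and 0.995. Both differences from PD14 were -0.17 without PD14 replicate 3 and -0.02 without PD14 replicate 1. Airn, the antisense transcript that runs through Igf2r and shares none of its exonic bases in GENCODE M21, was at 2.34 to 2.98 FPKM.

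Taken per library, the ratio of Igf1r to Igf2r was 0.676 to 0.746 at PD14, 0.785 to 0.903 at PD15 and 0.817 to 1.05 at PD16. All PD14 libraries lay below all libraries of the later days, while PD15 and PD16 overlapped. PD14 replicate 3 was lowest for both receptors, and its ratio of 0.691 lay between those of the other PD14 libraries. The ratio was formed after the values had been seen and was not tested.

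The 6 binding proteins differed widely in level. On PD14 and PD15 the order of the means over all members was Igfbp7, Igfbp5, Igfbp4, Igfbp6, Igfbp2, Igf1, Igf2r, Igf1r, Igfbp3 and Igf2. At PD16 Igf1 stood above Igfbp2, and the rest of the order was as before. Not every neighbour was separate. The libraries of Igfbp5 and Igfbp4 overlapped on PD14 and PD16, those of Igfbp2 and Igf1 on PD15 and PD16, and those of Igf2r and Igf1r on PD16.

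**Figure D2:**
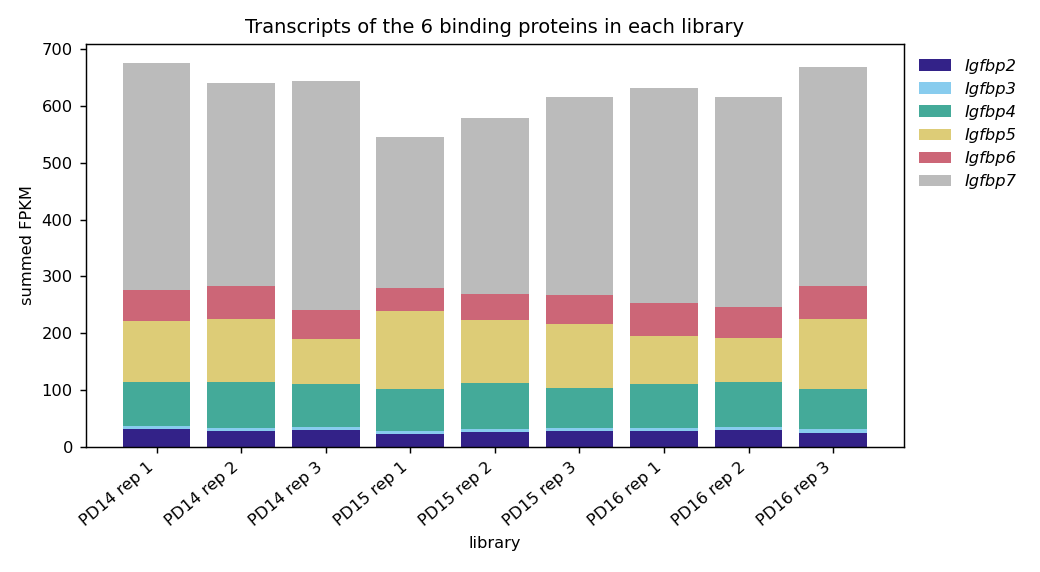
Summed FPKM of the 6 binding proteins (vertical axis, from 0) in each of the 9 libraries, with stacked segments for each gene. Igfbp7 takes 48.7% to 62.6% of every bar, and the PD15 bars reach 546 to 616 FPKM, against 641 to 676 at PD14 and 616 to 669 at PD16.

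Igfbp7 encodes a secreted protein that binds insulin-like growth factors weakly and also binds insulin, and lies at chr5:77349240-77408041 on the minus strand. It was the most abundant member, and its mean over all libraries exceeded that of 99.5% of the genes tested. Its FPKM was 399, 358 and 403 at PD14, 266, 309 and 349 at PD15 and 380, 370 and 386 at PD16. All PD15 libraries were below all libraries of the other days, with PD15 replicate 1 the lowest, and PD14 and PD16 overlapped. The difference was -0.33 (SE 0.11, 95% interval -0.58 to -0.09, limma adjusted p = 0.203, unadjusted p = 0.0131) from PD14 to PD15 and 0.30 (SE 0.11, adjusted p = 0.243, unadjusted p = 0.0205) from PD15 to PD16. Polr2b, on the opposite strand, shares 85 exonic bases with Igfbp7 (7.03%) and was at 27.5 to 35.3 FPKM.

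Igfbp6 encodes a binding protein that prefers IGF2 and lies at chr15:102144362-102149511 on the plus strand. Its FPKM was 54.6, 58.0 and 52.2 at PD14, 40.6, 46.8 and 51.2 at PD15 and 57.4, 55.1 and 57.9 at PD16. As for Igfbp7, each PD15 library lay below each library of the other days and PD15 replicate 1 was the lowest. The difference was -0.25 (SE 0.08, limma adjusted p = 0.211, unadjusted p = 0.0147) from PD14 to PD15 and 0.30 (SE 0.08, adjusted p = 0.147, unadjusted p = 0.00563) from PD15 to PD16. PD16 and PD14 differed by 0.05, with a 95% interval of -0.14 to 0.24. Without PD15 replicate 1, the difference from PD14 to PD15 was -0.16 for Igfbp6, and that from PD15 to PD16 was 0.20 for Igfbp7.

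Igfbp2, which binds both ligands and lies at chr1:72824503-72852474 on the plus strand, had 30.9, 27.9 and 28.8 FPKM at PD14, 22.3, 24.9 and 26.9 at PD15 and 28.0, 28.3 and 24.3 at PD16. The PD15 libraries were below the PD14 libraries. PD16 overlapped both, and its overlap with PD15 came from PD16 replicate 3 alone. The difference was -0.24 (SE 0.08, limma adjusted p = 0.232, unadjusted p = 0.0189) from PD14 to PD15 and 0.12 (SE 0.08, adjusted p = 0.572) from PD15 to PD16. The latter was 0.05 without PD15 replicate 1 and 0.19 without PD16 replicate 3.

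Marker lists were read beside these genes as well, and none of the markers was at 0 in every library. Between PD15 and PD14, limma called 0.678% of all genes tested, and 14.7% had an unadjusted p under 0.05. Without overlap, 10.4% of all genes were higher and 10.2% lower at PD15 than at PD14. Between PD16 and PD15, limma called 0.729% of all genes. The summed FPKM of the 8 stromal markers was 641 to 722 at PD14, 520 to 638 at PD15 and 648 to 684 at PD16, with PD15 replicate 1 the lowest library. From PD14 to PD15, 6 of the 8 had a negative and 2 (Pdgfra and Tcf21) a positive difference, with 0 called by limma (2 at an unadjusted p under 0.05) and 0 without overlap. The 12 granulosa markers summed to 3080 to 3781 FPKM at PD14 and 2925 to 3333 at PD15. Of these, 4 had a positive and 8 a negative difference, with 0 called by limma and 5 at an unadjusted p under 0.05. Without overlap, 2 were higher at PD15 (Amh and Foxl2) and 2 lower (Hsd17b1 and Cyp19a1).

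The 6 red blood cell markers summed to 105 to 147 FPKM at PD14, 46.4 to 63.2 at PD15 and 60.9 to 116 at PD16. Of the 5 tested, 1 fell from PD14 to PD15 (Hba-a1, limma adjusted p = 0.0381), and 4 were lower at PD15 without overlap. The 8 theca and interstitial markers summed to 1766 to 2410, 1282 to 1916 and 1293 to 1768 FPKM. From PD14 to PD15 they had 7 negative differences of 8 and a median of -0.40. Limma called 0 of them (2 at an unadjusted p under 0.05), and 4 were lower at PD15 without overlap. The 8 endothelial markers summed to 69.0 to 74.0, 63.7 to 67.9 and 62.2 to 65.1 FPKM, so PD15 lay below PD14 and overlapped PD16. The 12 oocyte markers summed to 1476 to 1585 FPKM at PD15, above 1137 to 1398 at PD14 and 1082 to 1157 at PD16. From PD14 to PD15, 10 of them had a positive difference and 1 rose (Nlrp5, limma adjusted p = 0.0377), and from PD15 to PD16 all 12 had a negative difference and 2 fell (Zp2 and Nlrp5). Of the 5 fat markers 1 was tested, Plin1, and it fell from PD14 to PD15 (adjusted p = 0.0377). The 8 macrophage markers summed to 27.8 to 30.7 FPKM at PD14 and 32.5 to 39.6 at PD15. Of the 7 tested, 5 had a positive and 2 a negative difference, with 0 called by limma. The 8 surface epithelium markers summed to 56.2 to 65.2 FPKM at PD14 and 50.7 to 58.4 at PD15. Of the 7 tested, 5 had a negative and 2 a positive difference, with 0 called by limma and 2 lower without overlap. The 6 smooth muscle markers summed to 298 to 342 FPKM at PD14 and 287 to 382 at PD15. Of these, 4 had a positive and 2 a negative difference, with 0 called by limma and 1 higher without overlap (Cnn1). Whether these cell types had a part in the low values of Igfbp2, Igfbp6 and Igfbp7 was not tested.

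Because these 3 genes shared PD15 values below those of PD14, their upstream sequences are shown. All 10 members matched the RefSeq promoter table of GRCm38.p6, the assembly named mm10, and the 250 bases upstream of an annotated start are printed 5′ to 3′ on the strand of the gene, with CG dinucleotides in capitals. The windows lie at chr1:72824230-72824479 (plus strand), chr15:102143936-102144185 (plus strand) and chr5:77408046-77408295 (minus strand), outside all GENCODE M21 exons. Igfbp2 has a second start in the table, whose window overlaps its exons, holds 11 CG dinucleotides and none of the motifs given after the sequences, and is not printed.
Igfbp2: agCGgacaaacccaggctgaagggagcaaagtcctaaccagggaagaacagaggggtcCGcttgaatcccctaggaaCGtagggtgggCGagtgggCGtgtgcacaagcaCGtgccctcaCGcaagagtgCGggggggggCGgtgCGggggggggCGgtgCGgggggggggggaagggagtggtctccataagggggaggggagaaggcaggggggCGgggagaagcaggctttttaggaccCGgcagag
Igfbp6: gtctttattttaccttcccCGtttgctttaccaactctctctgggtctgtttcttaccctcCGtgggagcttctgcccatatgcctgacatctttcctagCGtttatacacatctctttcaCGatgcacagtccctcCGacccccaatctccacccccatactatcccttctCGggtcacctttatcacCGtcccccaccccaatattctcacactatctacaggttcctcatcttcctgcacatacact
Igfbp7: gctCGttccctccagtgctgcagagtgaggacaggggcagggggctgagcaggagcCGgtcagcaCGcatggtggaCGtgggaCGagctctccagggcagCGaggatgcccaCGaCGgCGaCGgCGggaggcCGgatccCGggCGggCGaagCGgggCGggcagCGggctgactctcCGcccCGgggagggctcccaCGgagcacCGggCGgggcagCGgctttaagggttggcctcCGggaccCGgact
The sequences differ in composition. Igfbp7 has 26 CG dinucleotides, more than 90.4% of the 32851 windows in the table, Igfbp2 has 14 in the printed window and Igfbp6 has 7, against a median of 6. Each motif was searched on both strands, so a match may be printed as its reverse complement. The letters GGGCGG occur 3 times for Igfbp2 and 4 times for Igfbp7, and 32.7% of all windows hold them. TATAAA occurs 1 time and CCAAT 2 times for Igfbp6, and these letters are held by 12.4% and 33.85% of all windows. None of these 3 motifs was found in all 3 windows. A match describes these letters only.

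Igfbp5 encodes a binding protein that associates with the extracellular matrix and lies next to Igfbp2, in the opposite orientation, at chr1:72857932-72874884. Its FPKM was 108, 112 and 78.2 at PD14, 137, 111 and 112 at PD15 and 85.0, 78.3 and 125 at PD16. Libraries of the same day differed more than the days did. PD14 replicate 3 and PD16 replicate 2 were the lowest libraries. PD15 replicate 1 was the highest for Igfbp5 and the lowest for its neighbour Igfbp2. Its within-day SD of 0.28 on the log2 scale exceeded that of 91.6% of the genes tested, where the median was 0.11, and counting error was at most 1.02%. The differences were 0.28 (95% interval -0.15 to 0.71) for PD15 against PD14 and -0.34 (-0.77 to 0.09) for PD16 against PD15, with limma adjusted p-values of 0.538 and 0.458. They ran from 0.11 to 0.37 and from -0.54 to -0.21 when single libraries were omitted.

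Igfbp4, which encodes an inhibitory binding protein that the protease PAPP-A cuts, lies at chr11:99041244-99054392 on the plus strand. It had 77.6, 80.1 and 76.6 FPKM at PD14, 74.5, 80.4 and 71.3 at PD15 and 77.2, 78.9 and 70.1 at PD16. The days overlapped and the libraries of a day lay close together, with a within-day SD of 0.07 on the log2 scale, above that of 22.0% of the genes tested. The 95% interval of the difference was -0.21 to 0.10 for both later days against PD14 and -0.15 to 0.15 for PD16 against PD15. The limma adjusted p-values were 0.775, 0.695 and 0.999.

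Igfbp3, the main carrier of insulin-like growth factors in serum, was the least abundant binding protein and lies at chr11:7206086-7213923 on the minus strand. Its FPKM was 4.75, 5.14 and 5.40 at PD14, 5.30, 6.27 and 5.90 at PD15 and 4.92, 5.64 and 6.13 at PD16. The days overlapped, with PD14 replicate 1 the lowest library. The difference was 0.16 (SE 0.09, limma adjusted p = 0.418) from PD14 to PD15 and 0.10 (SE 0.09, adjusted p = 0.504) from PD14 to PD16. The latter was 0.04 without PD16 replicate 3 and 0.18 without PD16 replicate 1. Between 344 and 531 fragments per library gave a counting error of at most 5.39%.

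Set against the binding proteins other than Igfbp7, which binds the ligands weakly, Igf1 transcripts amounted to 6.78% to 8.08% of the summed FPKM of Igfbp2 to Igfbp6 at PD14, 7.89% to 8.72% at PD15 and 9.06% to 13.3% at PD16. The PD16 libraries were above all others, and PD14 and PD15 overlapped. The sum itself overlapped on all days, from 241 to 283 FPKM. These ratios of FPKM are given as a description, since Igf1 had already been seen to rise, and protein was not measured by these data.

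The members were then read against the background of all genes. Between PD15 and PD14, 0 of 10 members passed limma at an adjusted p under 0.05, where 0.678% of all genes did, and 3 of 10 had an unadjusted p under 0.05, against 14.7% of all genes. The libraries of these days did not overlap for 4 members, Igf1r (higher) and Igfbp2, Igfbp6 and Igfbp7 (lower), where 10.4% of all genes did not overlap in the higher direction, 10.2% in the lower and 20.6% in either.

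Between PD16 and PD14, 1 of 10 members passed, against 4.25% of all genes, and 2.36% of all genes rose. The unadjusted p was under 0.05 for 2 members, Igf1 and Igf1r, against 22.8% of all genes. The groups did not overlap for Igf1 alone, where 15.0% of all genes did not overlap in this direction and 28.5% in either. The members' median difference was -0.04, against 0.01 over all genes.

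Between PD16 and PD15, 0 of 10 members passed, against 0.729% of all genes, and 3 of 10 had an unadjusted p under 0.05, against 14.1%. The groups did not overlap for 3 members, Igf1, Igfbp6 and Igfbp7, all higher at PD16, where 9.85% of all genes did not overlap in this direction. These comparisons share the libraries of a day, so a low PD15 value enters both steps. In limma's F test over the 3 days, none of the 10 members had an adjusted p under 0.05, with 0.0826 for Igf1, 0.117 for Igfbp6 and 0.159 for Igfbp7, where 3.03% of all genes passed.

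**Figure D3:**
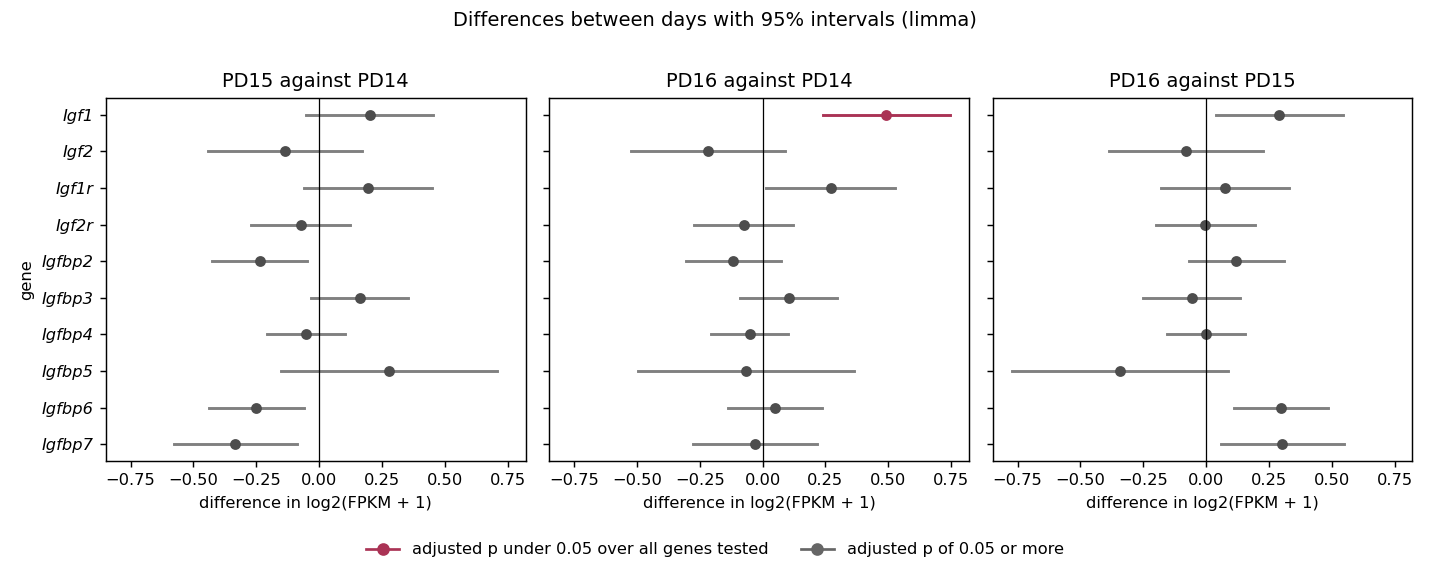
Difference in log2(FPKM + 1) between days (horizontal axes) for the 10 genes, with points for the limma estimate and lines for the 95% interval, coloured where the adjusted p over all genes was under 0.05. Igf1 at PD16 against PD14 is the single coloured point, at 0.49, and the intervals of Igfbp4 are the narrowest and those of Igfbp5 the widest.

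Other genes of the pathway were taken from a list of 31, which held ligands, receptors and adaptors, proteases and their inhibitors, and enzymes of the phosphoinositide 3-kinase route, and 22 of these passed the expression filter. Between PD16 and PD14, 3 rose, 1 fell and 18 did not pass the test, where 2.36% of all genes rose and 1.89% fell. Between PD16 and PD15, 2 rose and 0 fell, where 0.432% of all genes rose, and between PD15 and PD14 0 passed in limma, with 4 of 22 at an unadjusted p under 0.05, against 14.7% of all genes. The median difference of the list between PD16 and PD14 was -0.02, against 0.01 over all genes.

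Foxo1 encodes a transcription factor that is kept out of the nucleus when insulin or insulin-like growth factor signals through AKT. Its FPKM was 31.9, 27.8 and 30.4 at PD14, 44.2, 43.2 and 36.9 at PD15 and 58.1, 54.0 and 60.3 at PD16. The 3 days were separate, in rising order. The difference between PD16 and PD14 was 0.92 (SE 0.08, limma adjusted p = 0.00419), and it held with each library left out (highest adjusted p = 0.0216). The steps in limma were 0.45 (adjusted p = 0.0538, and 0.0348 without PD15 replicate 3) to PD15 and 0.47 (adjusted p = 0.0462) to PD16, and the latter passed in 1 of 9 cases with a library left out, that without PD14 replicate 2 (highest adjusted p = 0.141).

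Grb14, which encodes an adaptor that binds the insulin receptor and inhibits it, had 31.0, 30.7 and 31.4 FPKM at PD14, 26.1, 27.6 and 30.6 at PD15 and 56.7, 38.8 and 49.7 at PD16. All PD16 libraries were above all earlier ones. The difference was 0.61 (SE 0.12, limma adjusted p = 0.0292) against PD14 and 0.75 (SE 0.12, adjusted p = 0.0357) against PD15. The call against PD14 was lost, at adjusted p-values up to 0.0943, when any PD14 library or PD16 replicate 1 or 3 was left out, and that against PD15, up to 0.129, when any PD15 library, PD14 replicate 3 or PD16 replicate 1 or 3 was left out.

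Htra1 encodes a secreted protease that cuts binding proteins. Its FPKM was 120, 158 and 149 at PD14, 164, 178 and 151 at PD15 and 228, 215 and 199 at PD16. The PD16 libraries lay above all others. The difference between PD16 and PD14 was 0.59 (SE 0.11, limma adjusted p = 0.0282), and the call was lost (adjusted p up to 0.0942) without PD14 replicate 1 or 3 or PD16 replicate 1 or 2.

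Among genes that act on PAPP-A, the protease that cuts Igfbp4, Stc2 encodes a secreted inhibitor. Its FPKM was 3.72, 5.86 and 4.42 at PD14, 3.95, 4.21 and 3.87 at PD15 and 3.20, 2.26 and 2.59 at PD16. It fell by 0.61 on the log2 scale from PD14 to PD16 (SE 0.14, limma adjusted p = 0.0411), with all PD16 libraries below all earlier ones, and the call remained in 1 of 9 cases with a library left out, that without PD14 replicate 1 (highest adjusted p = 0.108). Pappa, which encodes the protease, had 2.49, 0.957 and 1.39 FPKM at PD14, 0.517, 0.377 and 0.735 at PD15 and 0.407, 0.344 and 0.652 at PD16. All PD14 libraries were above all later ones, but they differed widely from each other, and the difference between PD16 and PD14 was -0.80 (SE 0.21, limma adjusted p = 0.0610). The adjusted p ran from 0.0443 without PD14 replicate 2 to 0.165 without PD16 replicate 1, and at this low level the size depended on the pseudocount, with -1.53 at a pseudocount of 0.1.

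The insulin receptor and its immediate substrates did not pass the test. Mean FPKM at PD14, PD15 and PD16 was 8.33 ± 0.639, 7.34 ± 0.279 and 7.66 ± 1.56 for Insr (SD, n = 3), 8.40 ± 0.952, 7.65 ± 0.925 and 9.06 ± 1.14 for Irs1, and 4.71 ± 0.512, 4.24 ± 0.122 and 5.10 ± 0.501 for Irs2. Ghr, the growth hormone receptor, was at 6.10 ± 0.380, 5.25 ± 0.936 and 6.33 ± 1.15. Between PD16 and PD14 the differences of these 4 genes ran from -0.12 for Insr to 0.10 for Irs1 and Irs2, with limma adjusted p-values of 0.536 to 0.894. When single libraries were omitted, the difference ran from -0.26 to -0.03 for Insr, 0.00623 to 0.17 for Irs1, 0.03 to 0.16 for Irs2 and -0.09 to 0.12 for Ghr, and none passed.

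H19, the maternally expressed non-coding RNA beside Igf2, had 21.2, 23.1 and 27.4 FPKM at PD14, 15.6, 16.2 and 18.7 at PD15 and 14.8, 15.6 and 13.7 at PD16. All PD14 libraries were above all later ones, and PD16 lay just below PD15. H19 fell by 0.66 on the log2 scale from PD14 to PD16 (SE 0.10, limma adjusted p = 0.0143), a call lost without PD16 replicate 1 (adjusted p = 0.0548), and the difference from PD14 to PD15 was -0.48 (SE 0.10, adjusted p = 0.0763). Igf2 itself had a smaller difference of -0.22, which did not pass, and a difference between H19 and Igf2 was not tested.

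**Figure D4:**
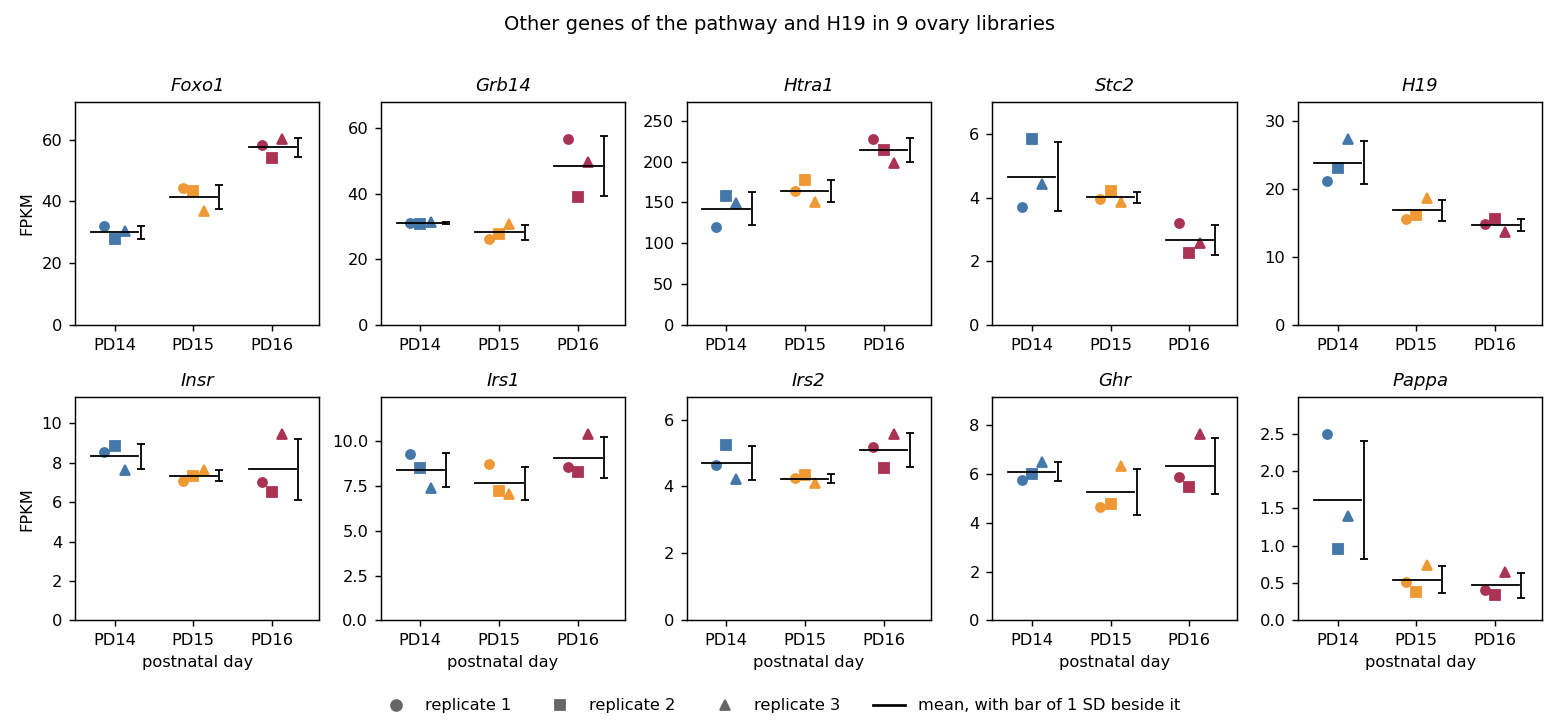
FPKM (vertical axes, each from 0) of 9 other genes of the pathway and of H19 in each library by postnatal day, with symbols for the replicate number, a line for the mean and a bar of 1 SD beside it. Foxo1 stands at 27.8 to 31.9, 36.9 to 44.2 and 54.0 to 60.3 FPKM on the 3 days, and Insr, Irs1, Irs2 and Ghr overlap between PD14 and PD16.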

How the data were processed

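RNA-seq libraries of 9 mouse ovary samples, 3 for each of PD14, PD15 and PD16, were grouped by the age in the labels. The authors deposited FPKM per gene for each library. The submitters' processing notes name HISAT2 2.0.5 and mm10, and the counting tool, its strand setting and the annotation are not given in the sources used here. Libraries were prepared with the NEBNext Ultra kit. FPKM was used as deposited. Depth was recovered from the FPKM step of a single fragment and GENCODE M21 exon lengths (50462 genes, 97.0%), and 94.9% to 95.3% of low values were then whole within 0.05 fragments. For 9 of 10 members fragments were whole in all libraries, and for Igf2r they are approximate.

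Genes whose mean FPKM on any day was above 1 were tested as log2(FPKM + 1) with limma 3.58.1 and an intensity trend in R 4.3.3, with all 9 libraries in 1 model and Benjamini-Hochberg adjustment over all genes. Differences called log2 are on this scale, which understates changes of low genes. Single genes were also tested by exact permutation over 20 splits, two-sided. Tables and plots were made with Python 3.11.15, pandas 2.3.3, NumPy 2.4.6 and Matplotlib 3.10.9. On simulated data of 15140 genes for PD16 against PD14, 56.0% of changes of 0.5 on the log2 scale were recovered.

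Members, gene lists and rules were chosen with earlier results of these data known. The genes named were the 10 members, the pathway and neighbouring genes with an adjusted p under 0.05 together with Insr, Irs1, Irs2, Ghr, Pappa and H19, and the 3 genes most like Igf1. Stc1, Igfbp1, Igfals, Ins1, Ins2, Airn, the genes overlapping members, the named markers, ratios and length classes were chosen after values were seen. Alternatives were another pseudocount (0.1), no filter or a mean FPKM above 5, 2 other scalings, limma without the trend, only the days compared, the replicate number as a block, and each library left out. For the pathway genes these alternatives were chosen after seeing the data.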

Additional observations from a re-analysis of the deposited data

How the results depend on the processing

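Igf1 between PD16 and PD14 was the single member called, and 0 members were called without the filter on low values (adjusted p = 0.106), without the limma trend (0.0560), with only the 2 days compared (0.0839) and with the replicate number as a block (0.0814). Between 0 and 1 members were called with each library left out. Its log2 difference stayed at 0.49 in these 4 settings, in which only the spread or the number of genes tested changes. No alternative called a member in the other comparisons. The count of all genes called was 105 between PD15 and PD14, and 29 without the filter, 63 at a mean FPKM above 5, 46 with only the 2 days, 24 with the replicate block and 3 (without PD15 replicate 1) to 92 with a library left out. It was 659 between PD16 and PD14, and 172 without the filter, 323 with only the 2 days, 227 with the replicate block and 92 (without PD16 replicate 1) to 660 with a library left out. It was 113 between PD16 and PD15, and 24 without the filter, 56 with the replicate block and 14 (without PD15 replicate 1) to 125 with a library left out. The replicate numbers share nothing in the labels, and deviations from the day means correlated at -0.21 to 0.16 between libraries of the same number, over 0.1 in 2 of 9 pairs. Under the block the calls of Foxo1 (adjusted p = 0.0143) and H19 (0.0349) between PD16 and PD14 held, and Grb14 (0.0546), Htra1 (0.0576) and Stc2 (0.0846) were not called, nor were Grb14 (0.0559) and Foxo1 (0.0889) between PD16 and PD15. Among uncalled differences signs changed, as for Igfbp5 between PD16 and PD14 in 4 of 17 settings. Igf2 could not be tested at a mean FPKM above 5. With 3 libraries a day, changes of 0.5 on the log2 scale or less were often missed.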

Other observations

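Igfbp1, which encodes a binding protein made mainly by the liver, was below the expression filter and was not tested. Its FPKM was 0.0268, 0.190 and 0.193 at PD14, 0.232, 0.276 and 0.183 at PD15 and 0.495, 0.404 and 0.361 at PD16. The PD16 libraries were above all others at these low levels, and the groups of PD14 and PD15 overlapped. Igfals, the acid-labile subunit that joins the serum complex of IGF and binding protein, was at 0.205 to 0.916 FPKM over the 9 libraries, and the PD16 libraries were below the PD15 libraries. Ins1 was listed at 0 in each library, and Ins2 had 0.0311 to 0.186 FPKM.

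Stc1, which like Stc2 encodes an inhibitor of PAPP-A, was far more abundant than Stc2. Its FPKM was 32.2, 35.9 and 28.6 at PD14, 19.8, 24.5 and 22.5 at PD15 and 28.0, 24.0 and 24.5 at PD16. All later libraries were below all PD14 libraries, PD16 replicate 1 by the smallest margin. The difference in log2(FPKM + 1) was -0.51 (SE 0.10, limma adjusted p = 0.0692) between PD15 and PD14 and -0.32 (SE 0.10, adjusted p = 0.103) between PD16 and PD14.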
